A study of Gallus gallus with 30 samples.

Results

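Fibroblast growth factors (FGFs) are a family of proteins by which cells of an embryo signal to each other, and 9 of their genes were followed through chicken development: FGF2, FGF3, FGF4, FGF8, FGF10, FGF12, FGF13, FGF18 and FGF19. They were chosen by name, as the probe sets of a chicken expression array that the platform's annotation assigns to these symbols. The 9 genes had 13 probe sets, and each gene is given by the probe set with the highest mean log2 signal. All 9 were among the 29600 of 37693 chicken probe sets that passed a filter on low signals and were tested, and the array names 13008 genes in all.

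The array study covered 15 Hamburger-Hamilton (HH) stages, the standard numbering of chick development by form. Every sample was wild type, from the Nera line and of mixed sex, and held total RNA pooled from several whole embryos without yolk or amnion. No sample carried a mutation or a treatment, so the only planned difference was the stage. Each stage had 2 arrays described as biological replicates, 30 in all, named here replicate 1 and replicate 2. How many embryos went into a pool is not stated.

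In the canonical pathway a secreted FGF binds a receptor tyrosine kinase (FGFR1 to FGFR4) together with heparan sulfate, and the receptor passes the signal through FRS2 and RAS to the kinase ERK. In bird embryos FGF signals are known for their roles in gastrulation, in mesoderm and body axis extension, in patterning of the midbrain and hindbrain, in induction of the inner ear and in outgrowth of the limb bud. FGF19 belongs to the endocrine branch, whose members bind their receptor with the help of a klotho protein. FGF12 and FGF13 are FGF homologous factors, which stay inside the cell, bind voltage-gated sodium channels and are not held to act as receptor ligands. FGF2 is released without a classical signal peptide.

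Values are linear array signals scaled by the depositors to a common trimmed mean of 500. Probes differ in brightness, so levels were compared between stages of a gene and not between genes. The background of an array was taken as the 95th percentile of its 689 probe sets for other organisms, and it lay between 25.4 and 47.2. The stages fell into 5 blocks. HH1-HH2 held those 2 stages on 4 arrays. HH4-HH9 took in HH4, HH6, HH8 and HH9 on 8 arrays, and HH11-HH16 took in HH11, HH14 and HH16 on 6. HH19-HH27 (HH19, HH24 and HH27) and HH32-HH38 (HH32, HH34 and HH38) had 6 arrays each. Neighbouring blocks were compared with limma, and neighbouring comparisons share the arrays of the block between them. A gene was called higher or lower at a Benjamini-Hochberg adjusted p below 0.05 over all tested probe sets with at least a 2-fold difference. All p-values measure the spread between 2 pools a stage, and in whole embryos fewer cells of a type and less RNA per cell cannot be told apart.

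The arrays showed a spread that matters for single stages. Correlations between the 2 arrays of a stage were 0.923 (HH24) to 0.943 (HH27), and 22 of 30 arrays had their own stage mate as the nearest array. The 2 HH9 arrays differed in cardiac muscle genes, with MYH15 at 423 and 1233 and MYL2 at 463 and 1260. TNNI1 went the other way, at 99.6 and 83.3. FGF3 (317 and 598) and FGF19 (587 and 1052) were also higher on HH9 replicate 2, and the cause was not tested. The 2 HH38 arrays stood apart in the 3′ to 5′ signal ratio of actin, a measure of RNA integrity and labelling, at 2.48 and 2.99, against 1.54 to 2.01 on the other arrays. The stage labels were checked against marker lists, whose members did not all move together. Of 11 markers of the streak and presomitic mesoderm, 3 were called higher (among them TBXT, the mesoderm factor of the streak) and 4 lower (WNT3A among them) in HH4-HH9 against HH1-HH2, and 9 were lower in HH11-HH16 against HH4-HH9. Of all tested probe sets, 10.4% were higher and 4.95% lower in the first comparison, and 5.35% were lower in the second. Of 9 tested neuron markers, 9 were called higher in HH19-HH27 against HH11-HH16, beside 5.6% of all. In HH32-HH38 against HH19-HH27, 3 of these markers were higher and 0 lower, beside 7.05% and 1.97% of all. NEFM, a neurofilament subunit, had a log2 difference of -0.60 there without reaching 2-fold.

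Of the 9 FGF genes, 8 differed between stages (adjusted p below 0.05 in limma's F test), while 69% of all tested probe sets did. FGF4 did not pass (adjusted p = 0.125). 6 genes (FGF2, FGF3, FGF12, FGF13, FGF18 and FGF19) stood above background on all 30 arrays, FGF8 on 27, FGF10 on 21 and FGF4 on 11. The highest stages were spread over development: HH4 for FGF3, FGF4 and FGF19, HH11 for FGF8 and FGF18, HH19 for FGF10, HH32 for FGF13, HH34 for FGF12 and HH38 for FGF2.

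**Figure D1:**
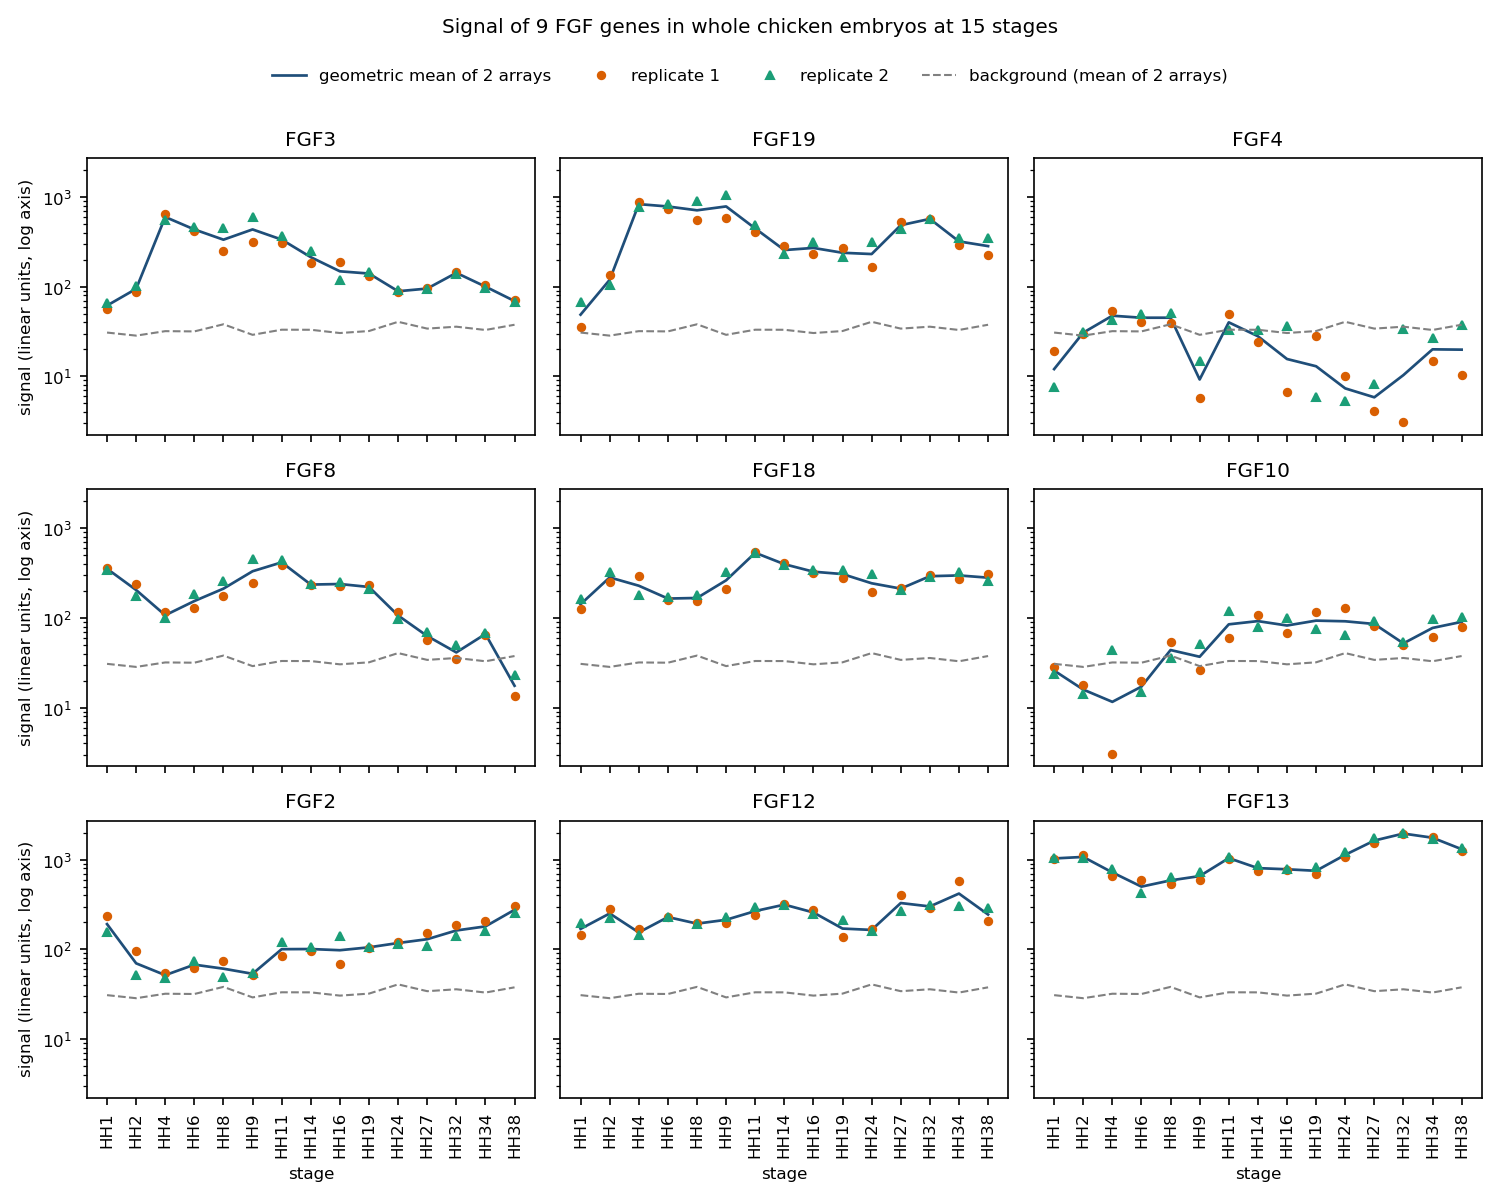
Signal (linear units on a log axis) of each of the 9 FGF genes at 15 stages. Points are the 2 arrays of a stage, the line is their geometric mean and the dashed line is the background; FGF3 and FGF19 peak at HH4, FGF8 and FGF18 at HH11, and FGF4 runs along the background.

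FGF3 and FGF19 made the sharpest change of the 9, an upswing between HH2 and HH4. FGF3 is a secreted ligand that acts with other FGFs in inner ear induction. FGF19 is known in the chick for the same process and in adult liver as a regulator of bile acid synthesis.

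FGF3 had 57 and 66.6 at HH1, 87.6 and 102 at HH2, 643 and 558 at HH4, 413 and 458 at HH6, 249 and 449.6 at HH8, and 317 and 598 at HH9. Every HH4-HH9 array lay above every HH1-HH2 array. It then had 304 and 369 at HH11, 182 and 250.4 at HH14, 187 and 118 at HH16, 133 and 148 at HH19, 87.3 and 90.7 at HH24, and 97.5 and 93.2 at HH27. Signals thus fell stepwise through the middle stages. The last values were 148 and 138 at HH32, above all HH1-HH2 arrays, 105 and 95.6 at HH34, and 71.3 and 67.1 at HH38.

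FGF19 had 35.4 and 67.2 at HH1, 135 and 105 at HH2, 889 and 783 at HH4, 739 and 833 at HH6, 556 and 909.6 at HH8, and 587 and 1052 at HH9. The HH4-HH9 arrays again did not overlap those of HH1-HH2. It had 403 and 494 at HH11, 282 and 233 at HH14, 233 and 315 at HH16, 267 and 214 at HH19, and 168 and 319 at HH24. It then had 531 and 443 at HH27 and 566 and 575 at HH32, before 289 and 354 at HH34 and 229 and 352 at HH38. Neither FGF19 at HH27 against HH24 (limma adjusted p = 0.0768) nor FGF3 at HH32 against HH27 (0.330) was called, although the arrays did not overlap.

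In HH4-HH9 against HH1-HH2, 2 of the 9 genes were called higher, beside 10.4% of all tested probe sets, and 0 were called lower, beside 4.95%. FGF3 averaged 441 in HH4-HH9 and 76.4 in HH1-HH2, a log2 difference of 2.53 ± 0.177 (SE) or 5.78-fold (limma adjusted p = 4.44e-11). FGF19 averaged 778 in HH4-HH9 and 76.3 in HH1-HH2, a log2 difference of 3.35 ± 0.20 or 10.2-fold (limma adjusted p = 2.76e-12). The median log2 difference of the 9 genes was 0.01, beside 0.02 over all tested probe sets, and the other members were not called.

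The single step that held this change was HH4 against HH2, where 2 of 9 were called higher beside 6.24% of all. In 10 of the 14 steps between neighbouring stages 0 of the 9 genes were called in either direction, beside 0.0608% to 1.02% of all. At HH4 against HH2 the log2 differences were 2.66 ± 0.289 for FGF3 (limma adjusted p = 3.50e-07) and 2.80 ± 0.327 for FGF19 (limma adjusted p = 9.51e-07). FGF19 was also called higher at HH2 against HH1, beside 5.43% of all, by 1.29 ± 0.327 (limma adjusted p = 0.00438). That earlier call rested on few arrays: without HH1 replicate 1 the difference was 0.83 and without HH2 replicate 1 it was 1.11, and neither was called.

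In HH11-HH16 against HH4-HH9, FGF3 and FGF19 were the 2 of 9 called lower, beside 5.35% of all. FGF19 averaged 314 in HH11-HH16 and 778 in HH4-HH9, a log2 difference of -1.31 ± 0.176 (limma adjusted p = 2.16e-06), and the groups did not overlap. FGF3 averaged 219.9 in HH11-HH16 and 441 in HH4-HH9, a log2 difference of -1.01 ± 0.156 (limma adjusted p = 1.48e-05), with overlapping arrays. This FGF3 difference sits at the 2-fold limit, and leaving out any of 7 single arrays (HH4 replicate 1, HH6 replicate 2, HH8 replicate 2, HH9 replicate 2, HH11 replicate 1, HH14 replicate 1 or HH16 replicate 2) ended the call, at -0.89 to -0.99. FGF3 fell again in HH19-HH27, to 106 against 219.9 in HH11-HH16, by 1.05 ± 0.167 on the log2 scale (limma adjusted p = 2.91e-05). Without HH14 replicate 2 (-0.98) or HH16 replicate 1 (-0.94) that call was lost too.

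In the order of the stages by FGF3 level, 10 of 14 neighbours overlapped. The arrays of HH6 and HH11, HH19 and HH34, HH24 and HH38, and HH38 and HH1 were the neighbours that did not. For FGF19 10 of 14 neighbours overlapped as well, and the pairs that did not were HH32 and HH27, HH11 and HH34, HH24 and HH2, and HH2 and HH1. FGF3 had a second probe set, whose course correlated with the first at r = 0.896 over 15 stages. It was called higher in HH4-HH9 by 4.30 on the log2 scale, but it was above background on only 19 arrays. Its highest stage signal was 221.6 (HH4), so a difference of that size places its HH1-HH2 mean below background. The 4.30 is therefore not a measured fold. Its later differences of -0.72 in HH11-HH16 and -1.13 in HH19-HH27 were not called.

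FGF4 shares a chromosome region with both and is known from the primitive streak and from the apical ridge of the limb bud. In the gene order of the GRCg7b annotation, FGF19, FGF4 and FGF3 stand in a row with 0 other protein-coding genes between them. FGF4 had 19.1 and 7.59 at HH1, 30 and 31.5 at HH2, 53.6 and 42.1 at HH4, 40.6 and 50.1 at HH6, 39.6 and 51.4 at HH8, and 5.75 and 14.8 at HH9. 6 of the 8 HH4-HH9 arrays stood above background, against 1 of the 4 HH1-HH2 arrays, but the log2 difference of 0.67 ± 0.641 was not called (limma adjusted p = 0.435). In the later stages FGF4 had 49.2 and 32.6 at HH11, 23.9 and 32.9 at HH14, and 6.62 and 36.8 at HH16. All 12 arrays of HH19-HH27 and HH32-HH38 were below background, between 3.13 (HH32 replicate 1) and 37.7 (HH38 replicate 2). FGF4 met the call for lower in HH19-HH27 against HH11-HH16 (limma adjusted p = 0.039), but set against background the signal gave no fold, and leaving out any of 8 arrays ended the call.

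The genes on both sides of the row did not share the course of FGF3 and FGF19. CCND1 (cyclin D1) and ORAOV1 lie before FGF19, and ANO1 (a chloride channel) and FADD (a death receptor adaptor) after FGF3. Their correlations with FGF3 and FGF19 over 15 stages lay between -0.40 and 0.28. In HH4-HH9 against HH1-HH2 the log2 differences were -0.37 for CCND1, -0.68 for ORAOV1, 0.86 for ANO1 and 0.43 for FADD, and none reached 2-fold. The limma adjusted p was 0.00114 for CCND1, 1.15e-05 for ORAOV1, 0.000486 for ANO1 and 0.159 for FADD. ANO1 thus rose in the same direction as FGF3 and FGF19 here, by less. ANO1 then moved opposite to FGF3 and FGF19, higher in HH11-HH16 than in HH4-HH9 by 1.29 ± 0.162 (limma adjusted p = 8.40e-07).

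KLB encodes beta-klotho, the co-receptor that FGF19 needs in mammals. KLB had 7.51 and 30.2 at HH1 and 11.8 and 15.1 at HH2, all below background. It had 286 and 291 at HH4, 305 and 403 at HH6, 522 and 448 at HH8, and 437 and 470.3 at HH9, so that the blocks did not overlap. It was at least 13-fold higher in HH4-HH9 than in HH1-HH2, with the background standing in for the HH1-HH2 signals (measured means 386 and 14.2, limma adjusted p = 8.13e-10). In HH11-HH16 it had 104 and 103 at HH11, 48.2 and 5.03 at HH14, and 31.8 and 38.6 at HH16, averaging 38.4 against 386 in HH4-HH9, a log2 difference of -3.33 ± 0.349 (limma adjusted p = 5.03e-08). 4 of these 6 arrays were above background, and with background in place of lower signals the difference was 7.38-fold. From HH19 on, KLB had between 44.9 (HH19 replicate 1) and 175 (HH32 replicate 2), with its later peak at HH32 like that of FGF19.

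Markers of yolk sac endoderm, the yolk-absorbing layer, moved with both genes over the first 2 block comparisons. Of 10 listed markers, 8 were called higher and 1 lower in HH4-HH9 against HH1-HH2, beside 10.4% and 4.95% of all tested probe sets. In HH11-HH16 against HH4-HH9, 1 was then higher and 8 lower, beside 5.99% and 5.35%. The summed signal of the 10 ranged over 84032 to 121777 in HH4-HH9 against 7784 to 14683 in HH1-HH2. It ranged over 12020 to 63370 in HH11-HH16, 6080 to 17845 in HH19-HH27 and 39680 to 47226 in HH32-HH38. In HH19-HH27, 1 was higher and 6 lower. FGF3 was also called lower there, with a log2 difference of -1.05, while FGF19 differed by -0.07 without a call. In HH32-HH38, 7 were higher and 0 lower, while FGF3 differed by -0.09 and FGF19 by 0.32 without a call. The 10 did not share this late rise equally. RBP4 had 3.28 at HH9, below background, and 6847 at HH32. TTR had 32895 at HH9 and 14598 at HH32, CUBN 6234 and 452, and LRP2 3217 and 220. Which tissue gave the late rise was not tested. Of all tested probe sets, 5.6% were higher and 1.95% lower in HH19-HH27, and 7.05% and 1.97% in HH32-HH38. TTR, the thyroid hormone carrier transthyretin, was higher in HH4-HH9 by 5.98 ± 0.0807 on the log2 scale, and APOA1, the main protein of high-density lipoprotein, by 2.00 ± 0.104. APOA1 was among the 8 called lower in HH11-HH16 and TTR was not. None of the 10 was at 0, and 9 were above background on all HH4-HH9 arrays, against 6 on all HH1-HH2 arrays. Of 11 streak and presomitic mesoderm markers, 3 were called higher and 4 lower in HH4-HH9, and 9 lower in HH11-HH16. Their summed signal was 17673 to 32494 in HH4-HH9 against 13660 to 20543 in HH1-HH2. The part of either tissue in the FGF3, FGF19 and KLB values was not tested.

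**Figure D2:**
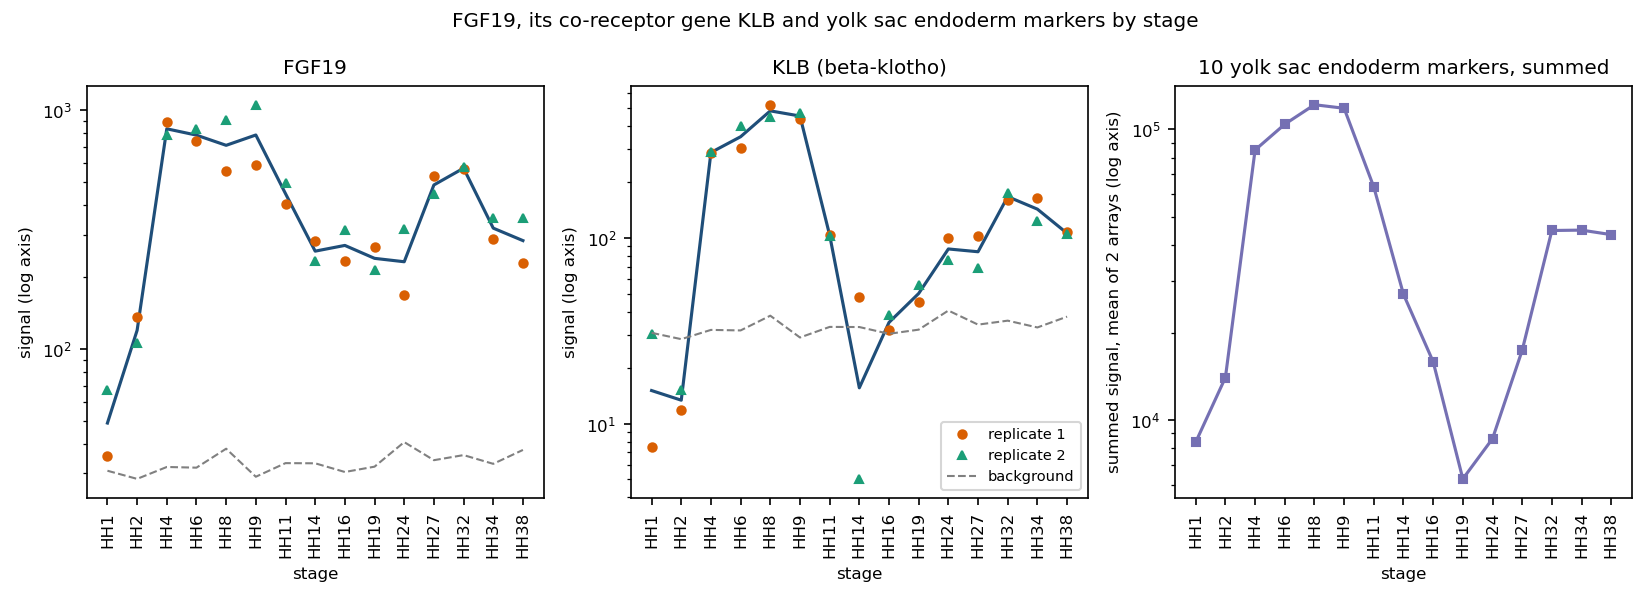
FGF19, KLB and the summed signal of 10 yolk sac endoderm markers by stage, on log axes. Circles and triangles are replicates 1 and 2, lines are geometric means (a mean of 2 arrays in the marker panel) and the dashed line is the background. All 3 courses step up at HH4, come down by HH14 and turn up again by HH32. The 10 markers shared the late upturn of their sum unequally. RBP4 had 3.28 at HH9 and 6847 at HH32, and LRP2 3217 and 220.

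FGF8 and FGF18 belong to the same FGF subfamily and both had their highest stage at HH11. FGF8 is the ligand of the midbrain-hindbrain organizer, the tail bud and the limb bud ridge, and it is also made in the streak. FGF18 is known from the somite and midbrain stages in the chick and from cartilage and bone growth.

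FGF8 had 366 and 343 at HH1, 241 and 175 at HH2, 116 and 99.2 at HH4, 129 and 186 at HH6, 174 and 259 at HH8, 243 and 453 at HH9, and 394 and 442 at HH11. Its course thus had 2 high points, HH1 and HH11, with HH4 low between them. It had 235 and 237 at HH14, 228 and 251 at HH16, 236 and 208 at HH19, 117 and 97 at HH24, and 57.1 and 69.4 at HH27. The last stages gave 34.6 and 49.4 at HH32, 65.3 and 67.2 at HH34, and 13.5 and 22.9 at HH38. Both HH38 arrays were below background, as was HH32 replicate 1.

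In HH19-HH27 against HH11-HH16, 3 of the 9 genes (FGF3, FGF4 and FGF8) were called lower, beside 1.95% of all, and 0 higher, beside 5.6%. FGF8 averaged 114 in HH19-HH27 and 287 in HH11-HH16, a log2 difference of -1.33 ± 0.179 (limma adjusted p = 3.52e-06). The overlap of these blocks came from HH19 replicate 1. In HH32-HH38 against HH19-HH27, FGF8 was the 1 gene of 9 called lower, beside 1.97% of all, and 0 were called higher, beside 7.05%. It averaged 36.4 in HH32-HH38 and 114 in HH19-HH27, a log2 difference of -1.65 ± 0.179 (limma adjusted p = 9.02e-08) and 2.41-fold with background in place of lower signals. Without both HH38 arrays the log2 difference was -1.13 and was still called (limma adjusted p = 5.17e-05). At HH38 against HH34 it was the 1 member called lower, beside 1.48% of all, and at least 1.76-fold lower with background in place of the HH38 signals (measured means 17.6 and 66.3, limma adjusted p = 0.000176).

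The fall of FGF8 over HH1 to HH4 was not called between blocks, with a log2 difference of -0.54 ± 0.190 in HH4-HH9 against HH1-HH2 (limma adjusted p = 0.0231). Within HH4-HH9 the highest array, HH9 replicate 2, stood above all HH1-HH2 arrays. In the order by level 9 of 14 neighbours overlapped, and HH11 and HH1, HH6 and HH4, HH24 and HH34, HH27 and HH32, and HH32 and HH38 did not.

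FGF18 had 124 and 163 at HH1, 249 and 322 at HH2, 294 and 178 at HH4, 158 and 172 at HH6, 153 and 182 at HH8, and 210.3 and 329 at HH9. It had 540.1 and 528 at HH11, above every other array, then 410.0 and 387 at HH14 and 315 and 342 at HH16. From HH19 to HH38 the lowest array was 194 (HH24 replicate 1) and the highest 344 (HH19 replicate 2), a plateau within which neighbours in the order of levels overlapped.

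In HH11-HH16 against HH4-HH9, FGF18 and FGF10 were the 2 of 9 called higher, beside 5.99% of all. FGF18 averaged 412 in HH11-HH16 and 202 in HH4-HH9, a log2 difference of 1.03 ± 0.134 (limma adjusted p = 1.35e-06), with overlap through HH9 replicate 2. The step HH11 against HH9 gave 1.02 ± 0.249 (limma adjusted p = 0.00760), where 1 of 9 was called higher beside 2.2% of all. Both calls sit at the 2-fold limit. The block call was lost without HH4 replicate 2 (0.94), HH8 replicate 1 (1.00, just under 2-fold) or HH9 replicate 1 (0.95). The step call was lost without HH9 replicate 1 (0.70). Without HH11 replicate 1 (1.00) the step kept 2-fold but did not pass the adjusted p. Quantile normalization (0.97 and 1.00) and log2(signal + 16) (0.97 and 0.98) ended both calls, and 75th percentile scaling (1.00) the block call. In HH19-HH27 against HH11-HH16 the difference of -0.71 ± 0.144 had a limma adjusted p of 0.000462 but did not reach 2-fold.

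FGF10 is the mesenchymal ligand of limb and lung budding. It had 28.6 and 23.5 at HH1, 17.7 and 14.3 at HH2, 3.07 and 44 at HH4, 19.8 and 14.8 at HH6, 53.8 and 35.8 at HH8, and 26.5 and 51.6 at HH9. Of these 12 arrays 3 were above background. It had 60.6 and 119 at HH11, 107 and 79.3 at HH14, 68.1 and 99.8 at HH16, 117 and 75 at HH19, 131 and 64.6 at HH24, and 80.5 and 91.4 at HH27, all above background. The signal then ranged from 49.8 (HH32 replicate 1) to 104 (HH38 replicate 2).

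FGF10 averaged 86.5 in HH11-HH16 and 23.8 in HH4-HH9, a log2 difference of 1.86 ± 0.407 (limma adjusted p = 0.000751), and the blocks did not overlap. With background in place of signals below it the difference was 2.27-fold, and no single step was called. The 2 arrays of HH4 were far apart, and the log2 difference was 1.38 without HH4 replicate 1 and 2.34 without HH4 replicate 2, called both times. Ordered by level, HH19, HH14, HH24, HH38, HH27, HH11, HH16 and HH34 overlapped from neighbour to neighbour, and HH32 lay below them. Of 10 limb bud markers, 8 were already called higher and 0 lower in HH4-HH9 against HH1-HH2, beside 10.4% and 4.95% of all tested probe sets. In HH11-HH16, 4 (TBX4, PRRX1, SHH and MEIS2) were higher and 0 lower, beside 5.99% and 5.35%. MSX2 and DLX5, homeobox genes that many other tissues also use, were not among these 4. The summed signal of the 10 was 11502 to 13081 in HH11-HH16 against 8638 to 12090 in HH4-HH9, and 9 of the 10 were above background on all arrays of either block. Of 8 cardiac muscle markers 5 were called higher in the same comparison, likewise beside 5.99% of all, with summed signals of 18784 to 20362 in HH11-HH16 against 4901 to 11255 in HH4-HH9. The part of these tissues in the FGF10 and FGF18 values was not tested.

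FGF2, or basic FGF, is a mitogen held in the extracellular matrix by heparan sulfate. Its course was nearly the reverse of that of FGF3, high at both ends. It had 235 and 155 at HH1, 94.6 and 51.4 at HH2, 54.9 and 48.3 at HH4, 61.6 and 73.7 at HH6, 74.4 and 49.6 at HH8, and 52.1 and 54.6 at HH9. It had 83.8 and 120.0 at HH11, 96.5 and 105 at HH14, 68 and 140.1 at HH16, 103 and 107 at HH19, 121 and 114 at HH24, and 153 and 109.7 at HH27. Both arrays of HH38, 303 and 251, were above all others, after 189 and 139 at HH32 and 205 and 158 at HH34.

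FGF2 was the 1 member called lower at HH2 against HH1, beside 5.4% of all, by -1.45 ± 0.357 (limma adjusted p = 0.00346). Without HH1 replicate 1 (-1.16) or HH2 replicate 2 (-1.01) this call was lost. In HH4-HH9 it averaged 57.9 against 115 in HH1-HH2, and the log2 difference of -0.99 ± 0.219 (limma adjusted p = 0.000645) stayed just short of 2-fold. The later differences were 0.78 ± 0.193 in HH11-HH16 against HH4-HH9 (limma adjusted p = 0.00228) and 0.78 ± 0.206 in HH32-HH38 against HH19-HH27 (limma adjusted p = 0.00427), both under 2-fold. Without both HH38 arrays the last difference was 0.55 and no longer passed (limma adjusted p = 0.0940). Between HH38 and HH4 the stage means differed 5.35-fold, and in the order by level 12 of 14 neighbours overlapped, all but HH38 and HH1, and HH24 and HH19.

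**Figure D3:**
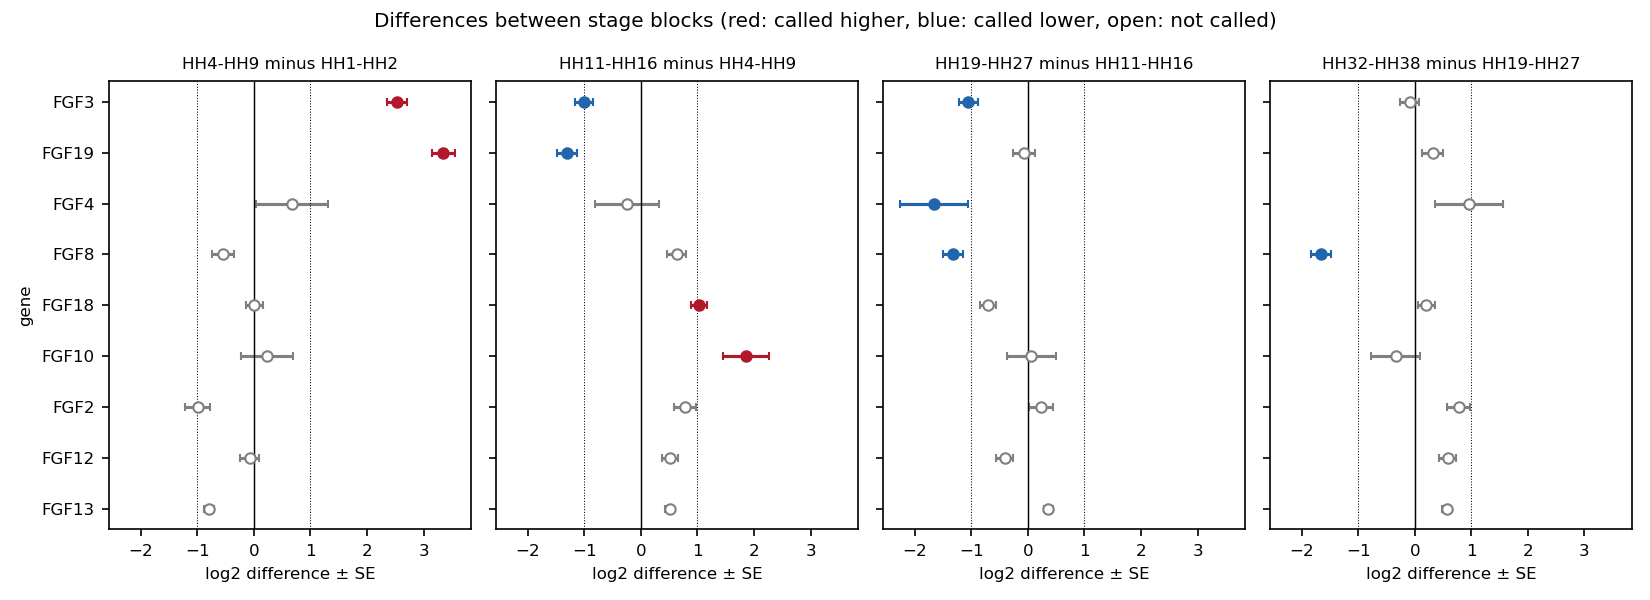
Log2 differences between neighbouring stage blocks for the 9 FGF genes, later minus earlier, with SE bars and dotted lines at 2-fold. Filled red points are called higher and filled blue points lower; FGF3 and FGF19 lead the first panel at 2.53 and 3.35, and FGF8 is the only member called in the last at -1.65.

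FGF13 and FGF12, the homologous factors, had, with FGF18, the smallest spans of the 9, with 3.91-fold for FGF13, 2.71-fold for FGF12 and 3.75-fold for FGF18 between the highest and the lowest stage. FGF13 had 1025 and 1036 at HH1, 1115 and 1030.1 at HH2, 655 and 792 at HH4, 594 and 420.4 at HH6, 539 and 639 at HH8, and 596 and 719.7 at HH9. The HH4-HH9 arrays all lay below those of HH1-HH2. It had 1020.3 and 1059 at HH11, 749 and 863 at HH14, 767 and 794 at HH16, 687 and 819.8 at HH19, 1062 and 1204 at HH24, and 1522 and 1748 at HH27. It was highest at HH32, with 1932 and 1972, and then had 1795 and 1717 at HH34 and 1251 and 1365 at HH38.

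FGF13 passed the adjusted p in all 4 block comparisons without reaching 2-fold in any. The log2 differences were -0.79 ± 0.0884 in HH4-HH9 (limma adjusted p = 1.12e-07), 0.51 ± 0.0780 in HH11-HH16 (1.25e-05), 0.36 ± 0.0833 in HH19-HH27 (0.00157) and 0.56 ± 0.0833 in HH32-HH38 (7.88e-06), each against the block before. Its 3 other probe sets did not all give the same calls. A second one was called lower in HH4-HH9, by -1.33, and higher in HH32-HH38, by 1.04. In HH19-HH27 it differed by -0.32 without a call, opposite in sign to the 0.36 of the first. Another followed the first at r = 0.956 with no call. The fourth was above background on 4 arrays and was not tested.

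FGF12 had 145 and 196 at HH1, 282 and 223 at HH2, 167 and 143 at HH4, 230.2 and 227 at HH6, 196 and 190.3 at HH8, and 199 and 229 at HH9. It had 243 and 293 at HH11, 319 and 310.2 at HH14, 271 and 245 at HH16, 136 and 214 at HH19, 167 and 162 at HH24, and 401 and 268 at HH27. It ended with 289 and 312 at HH32, 573 and 305 at HH34 and 208 and 287 at HH38. The gap between the 2 HH34 arrays was the widest of any stage, and 13 of 14 neighbours in the order of stages overlapped. FGF12 was called in 0 block comparisons, although its stage effect passed (limma adjusted p = 0.00094), and the 2 blocks HH11-HH16 and HH4-HH9 did not overlap, at 243 to 319 against 143 to 230.2 (log2 difference 0.51 ± 0.144, limma adjusted p = 0.00660).

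Of the 9 listed neuron markers that were tested, 3 were called higher and 1 lower in HH4-HH9, beside 10.4% and 4.95% of all tested probe sets. In HH11-HH16 3 were higher and 0 lower, beside 5.99% and 5.35%. In HH19-HH27 against HH11-HH16 9 were higher, beside 5.6%, while FGF13 differed by 0.36 and FGF12 by -0.41 without a call. The summed signal of the 10 on the array was 18288 to 35030 in HH19-HH27 against 5098 to 8498 in HH11-HH16, and 24222 to 38591 in HH32-HH38. DCX, a protein of young neurons, and NEFM were higher in HH19-HH27 by 1.22 ± 0.0860 and 1.94 ± 0.103. The part of neurons in the FGF12 and FGF13 values was not tested.

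Across the 9 genes the courses were mostly unlike each other. Over the 36 pairs, correlations of log2 stage means (n = 15 stages, which share their arrays and scaling) ran from -0.81 for FGF2 with FGF3 to 0.76 for FGF3 with FGF19. FGF2 with FGF13 followed at 0.74, and FGF8 with FGF18 had 0.06 although they peaked at the same stage. FGF4 had 0.57 with FGF3 and 0.24 with FGF19, mostly from signals below background.

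**Figure D4:**
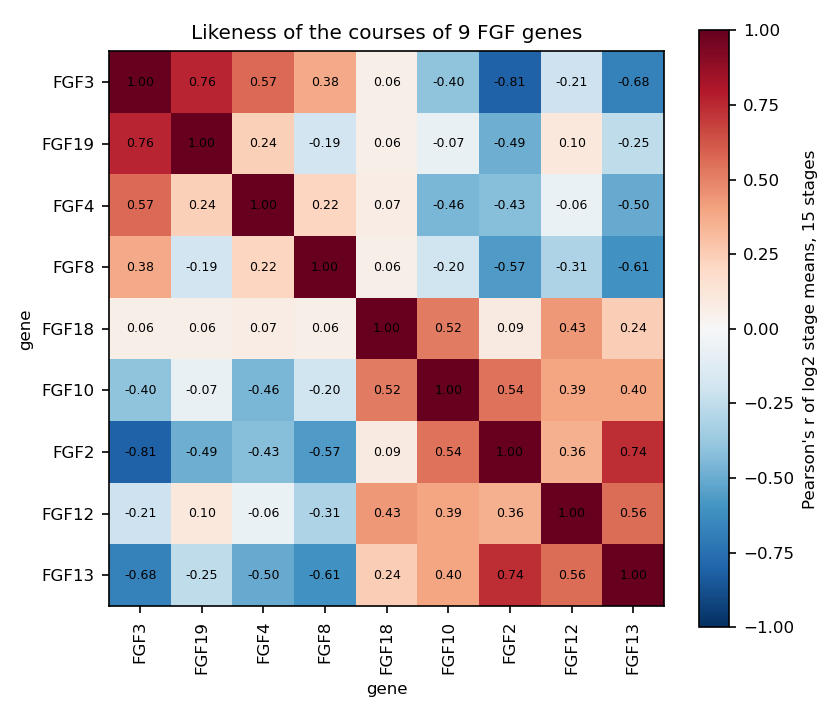
Pearson's r between the log2 stage means of the 9 FGF genes over 15 stages, from blue (negative) to red (positive). FGF3 with FGF19 (0.76) and FGF2 with FGF13 (0.74) are the closest pairs, and FGF2 with FGF3 (-0.81) the most opposed.

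The genes with the most similar course were sought among all named genes with a stage effect, by the same correlation over 15 stages. For FGF19 they were LOXL1, GSTA3 and DBT (r = 0.950 to 0.961), and for FGF3 CDCA9, SLC16A12 and GRAMD1C (0.935 to 0.943). For FGF8 they were CCNJL, ADI1 and LIN28B (0.941 to 0.951), the last an RNA-binding protein of early development. FGF10 was closest to GDF2, NKX3-2 and MYL2 (0.938 to 0.942), a BMP-type ligand, a cartilage homeobox factor and a cardiac myosin light chain. FGF2 was closest to USP25, NOTCH2 and TMEM159 (0.947 to 0.950), and FGF13 to ANKRD28, JAZF1 and MMP28 (0.909 to 0.924). The matches were looser for FGF18 with LTK, PRLH and CYBRD1 (0.818 to 0.830), FGF4 with NEIL1, RRAS and ATP6V1G1 (0.770 to 0.806) and FGF12 with LOC429098, CMBL and PLS1 (0.742 to 0.837). Of these 27 genes, 15 were again among the closest after scaling each array to its 75th percentile.

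Among the receptors, 2 of 5 were called higher and 1 lower in HH4-HH9 against HH1-HH2, beside 10.4% and 4.95% of all tested probe sets. In the other block comparisons 0 of 5 were called, beside 7.55% to 11.3% of all in either direction. The HH4-HH9 comparison is meant in the next sentence. The median log2 difference of the 5 was 0.97, beside 0.02 over all tested probe sets. FGFRL1, a receptor-like protein without a kinase domain, averaged 714 in HH4-HH9 and 86.2 in HH1-HH2, 8.29-fold higher (log2 3.05 ± 0.117, limma adjusted p = 1.02e-15). It had 683 and 449.8 at HH4 against 79.1 and 76.3 at HH2, the step at which FGF3 and FGF19 also rose. FGFR2 averaged 3833 in HH4-HH9 and 1903 in HH1-HH2, 2.01-fold higher (limma adjusted p = 8.78e-14), and its call was lost without HH1 replicate 2 or HH9 replicate 2 (0.99 each on the log2 scale) and with 75th percentile scaling (0.91). FGFR4 averaged 72.9 in HH4-HH9 and 246 in HH1-HH2, a log2 difference of -1.75 ± 0.533 (limma adjusted p = 0.00977), which was lost without HH1 replicate 1 (-1.55) or HH2 replicate 1 (-1.55). Its 2 arrays lay far apart at HH8, HH14 and HH16, and later calls depended on single arrays. It was called lower in HH11-HH16 without HH8 replicate 2, HH14 replicate 1 or HH16 replicate 1 (-1.39 to -1.53), and higher in HH19-HH27 without HH14 replicate 1 or HH16 replicate 1 (1.74 and 1.63). Leaving out either HH8 array, which is in neither of those blocks, also gave that call, with the difference of 1.21 as in the full set.

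FGFR3 averaged 9287 in HH4-HH9 and 4748 in HH1-HH2, a log2 difference of 0.97 ± 0.0857 (limma adjusted p = 2.39e-09), just under 2-fold with no overlap. It passed 2-fold without HH1 replicate 2 or HH2 replicate 2 (1.05 each). FGFR1, the receptor of the early mesoderm, averaged 1322 in HH4-HH9 and 913 in HH1-HH2 (0.53 ± 0.0980, limma adjusted p = 9.03e-05). From HH4-HH9 on, FGFR1, FGFR2, FGFR3 and FGFRL1 differed by less than 2-fold between neighbouring blocks.

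**Figure D5:**
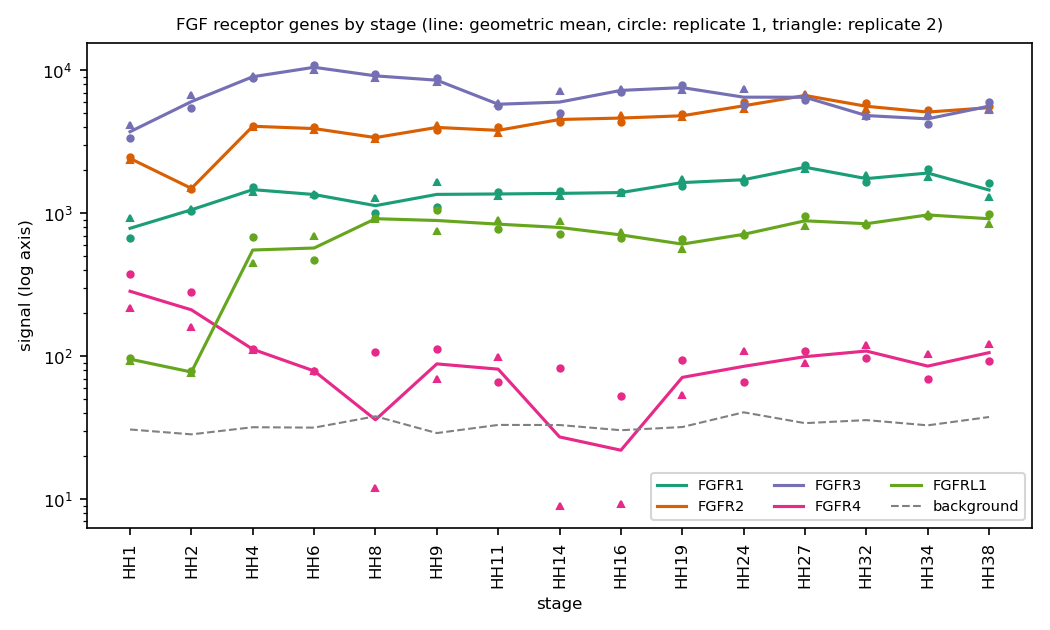
Signal (log axis) of the 5 FGF receptor genes at 15 stages. Lines are geometric means, circles and triangles replicates 1 and 2, and the dashed line the background; FGFRL1 steps up at HH4 and stays up, while FGFR4 comes down and drops below background on single arrays of HH8, HH14 and HH16.

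Of the co-receptors and heparan sulfate enzymes, 22 of 25 listed genes were tested. In HH4-HH9, 7 were called higher and 0 lower, beside 10.4% and 4.95% of all tested probe sets, with a median log2 difference of 0.45. Averaging each gene's probe sets left 3 higher in HH4-HH9 and 0 higher in HH11-HH16. Besides KLB the 7 called without averaging included FLRT1, a transmembrane FGFR partner (9.30-fold with background in place of lower signals, 2 of 4 HH1-HH2 arrays being above it, limma adjusted p = 0.000245), and HSPG2, the matrix proteoglycan perlecan (3.11-fold likewise, limma adjusted p = 1.47e-08). HSPG2 fell short of 2-fold with averaged probe sets. In HH11-HH16, 2 were higher and 2 lower, beside 5.99% and 5.35% of all. They were GPC1, a glypican, by 1.03 ± 0.0491, FLRT3 by 1.24 ± 0.0738, KLB as above, and KL, alpha-klotho, which was 2.27-fold lower with background in place of lower signals, 3 of 6 HH11-HH16 arrays being above it. In HH19-HH27, 1 was higher and 1 lower, beside 5.6% and 1.95% of all. FLRT1, the lower one, differed 4.43-fold with background in place of lower signals, as 3 of 6 HH19-HH27 arrays were above it (limma adjusted p = 0.000487). In HH32-HH38, 2 were higher and 1 lower, beside 7.05% and 1.97% of all, among them SDC2, a syndecan, by 1.45 ± 0.0781 and GPC3 by -1.50 ± 0.10. With log2(signal + 16), with averaged probe sets or without both HH38 arrays, 1 was higher. A call for higher was likewise lost without replicate 1 of HH19, HH24, HH27 or HH38. The GPC1 call was lost without HH9 replicate 2 (0.99) or HH14 replicate 1 (1.00), with 75th percentile scaling (0.99) and with averaged probe sets (0.93). KL was named after its values were seen.

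Of 18 tested signal transducers, 1 was called higher and 0 lower in HH4-HH9, beside 10.4% and 4.95% of all tested probe sets, with a median log2 difference of 0.00. It was FRS3, an adaptor between receptor and RAS (1.15 ± 0.0833, limma adjusted p = 8.50e-11). With quantile normalization or averaged probe sets, 0 transducers were called higher in HH4-HH9. PIK3R1, the regulatory subunit of PI3-kinase, was the 1 gene higher in HH19-HH27 (1.21 ± 0.0904) and again in HH32-HH38 (1.86 ± 0.0904), and 0 were called in HH11-HH16. Of all tested probe sets, 5.6% were higher in HH19-HH27 and 7.05% in HH32-HH38, and 11.3% were called in HH11-HH16.

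Of 17 tested response and feedback genes, 2 were called higher and 0 lower in HH4-HH9, near the 10.4% and 4.95% of all tested probe sets, with a median of 0.12. They were IL17RD, or SEF, a feedback inhibitor in the membrane (1.47 ± 0.0956, limma adjusted p = 1.17e-11), and ETV1, an ETS factor downstream of ERK (1.46 ± 0.0686, limma adjusted p = 3.86e-14). Both passed at the step HH4 against HH2, by 1.22 and 1.73. With DUSP6, named after its values were seen, 3 of the 17 were called higher at that step and 0 lower. Of all tested probe sets, 6.24% were higher and 1.85% lower there. SPRY1, a sprouty feedback inhibitor named after its values were seen, was the 1 of 17 called higher in HH11-HH16, by 1.15 ± 0.164. Of all tested probe sets 5.99% were higher there, and the SPRY1 call was lost without HH9 replicate 1. MYC was lower in HH19-HH27 by -1.21 ± 0.0771, and EGR1, an immediate early gene, was higher in HH32-HH38 by 2.84 ± 0.183 with 8304 and 7984 at HH38.

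Of the 11 other FGF genes listed, 9 were on the array and 7 were tested. In HH32-HH38 against HH19-HH27, 4 of the 7 were called higher and 0 lower, beside 7.05% and 1.97% of all tested probe sets, with a median log2 difference of 1.19. Of the 9 genes described above 0 were higher there, which is near the share of all. FGF7, the keratinocyte growth factor of mesenchyme, had 534 and 555 at HH32, 776 and 709 at HH34, and 1152 and 1196 at HH38. It averaged 779.6 in HH32-HH38 and 193 in HH19-HH27 (log2 2.01 ± 0.625, limma adjusted p = 0.0133), a call lost without both HH38 arrays (1.72). It had also come up in HH11-HH16, to 183 against 7.7 in HH4-HH9, 5.53-fold with background in place of lower signals (limma adjusted p = 1.01e-06). FGF16 was 2.72-fold higher in HH32-HH38 with background in place of lower signals (limma adjusted p = 0.00978) and FGF1 was higher by 1.39 ± 0.221 on the log2 scale (limma adjusted p = 1.97e-05), but the mean of all FGF1 probe sets gave 0.24. FGF20, named after its values were seen, made up the 4, but its call rested on signals below background. All its HH19-HH27 arrays were below it, between 11.3 (HH24 replicate 2) and 29.4 (HH19 replicate 1). HH38 replicate 1, at 14.2, was below it too. In HH4-HH9, 0 were higher and 2 lower, beside 10.4% and 4.95% of all, in signals mostly below background. The 2 became 0 or 1 with the offset of 16, without the filter, with array weights, with the replicate block or without any of 14 single arrays. There were in HH11-HH16 2 higher and 0 lower, beside 5.99% and 5.35% of all, and in HH19-HH27 0 either way, beside 7.55% (0 to 2 higher with an array left out).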

How the data were processed

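The deposited values are linear signal intensities, 1 per probe set and array, made by the authors with MAS5 per the submitters' processing notes, and their 2% trimmed mean is 500.0 on each array. Gene symbols came from GEO's platform annotation: of the chicken probe sets 27166 carried 1 symbol, 177 several and 10350 none, and RefSeq's GRCg7b table was used for names and gene order only. Arrays were grouped by the stage in their labels. Log2 signals of probe sets at or above an array's 40th percentile on at least 2 arrays were fitted by R 4.3.3's limma package, version 3.58.1 (1 coefficient per stage over 30 arrays, residual df 15, eBayes with a variance trend), with Benjamini-Hochberg adjustment within each contrast. The number of arrays limits the precision. The fit was tested on simulated data. Genes other than the 9 were named by rule: all receptors, up to 3 called, non-overlapping genes per list and contrast, the 2 brightest genes per tissue list and the 3 most correlated per member. The members and lists were chosen with earlier results of these data known.

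Replicate numbers did not pair the arrays: deviations of same-numbered arrays correlated at -0.023 to 0.0306 over 105 stage pairs. No 2 arrays held identical values. Scaling, quantile normalization, an offset, filters, background levels, probe-set averaging, array weights, a replicate block and each array left out were tried, and a fit without HH38 was added after seeing the data. Protein sequences were not used here, so the planned comparison of protein identity was not made.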

Additional observations from a re-analysis of the deposited data

How the results depend on the processing

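With 2 arrays a stage, members close to 2-fold changed calls, and no called difference of a named gene turned its direction in any alternative run. Uncalled differences near 0, such as 0.01 for FGF18 in HH4-HH9, are not covered by this, as the scaling alone could turn their sign. Of the 9 genes, those called lower in HH4-HH9 numbered 1 by 75th percentile scaling or quantile normalization (FGF2) and by averaging over probe sets (FGF13). With 1 array left out they numbered 0 to 1. Those called higher in HH11-HH16 numbered 1 under both scalings and with log2(signal + 16), and 1 to 2 with an array left out. Those called lower in HH11-HH16 numbered 1 with the offset of 16 and with that averaging (1 to 2 with an array left out), and lower in HH19-HH27 1 with the offset (1 to 3). Without HH32 replicate 1, 1 gene (FGF4, below background) was higher in HH32-HH38 (0 to 1). The rise of FGF3 and FGF19 in HH4-HH9 and the fall of FGF8 in HH32-HH38 passed in every alternative. Over all probe sets, averaging a gene's probe sets, which tests fewer features, gave 13501 stage effects, 933 lower in HH4-HH9, 371 lower in HH19-HH27 and 380 lower in HH32-HH38. The offset gave 377 lower in HH19-HH27 and 341 in HH32-HH38, quantile normalization 907 in HH32-HH38 and leaving out HH38, chosen after seeing the data, 378; the cause was not tested. Of the 27 most similar genes 15 remained after 75th percentile scaling. That scaling moved the median of all probe sets in HH4-HH9 to -0.08, against 0.02 as reported, and in HH32-HH38 to -0.11 against -0.00. A replicate block left 8 members with a stage effect and changed no call of a member. Averaged over their probe sets, FLRT3 (0.91), HSPG2 (0.86), FRS3 (0.75) and FGFR2 (0.77) fell short of 2-fold and FGF13 passed it (-1.01). With background at the 99th percentile, 4 genes were above it on all arrays.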
